A study of Danio rerio with 8 samples.

Results

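The integrated stress response was followed through 10 genes in the brains of *psap* knockout (KO) zebrafish and their wild-type (WT) siblings. The genes were picked by symbol, and all 10 of them had a row among the 22871 genes with counts. They comprise 6 transcription factor genes (*atf3*, *atf4a*, *atf4b*, *atf5a*, *atf5b* and *ddit3*), 2 genes that act on the pathway or on glutathione (*trib3* and *chac1*) and 2 genes of amino acid synthesis (*asns* and *phgdh*). RNA sequencing covered 4 libraries of each genotype, each library made from 3 pooled whole brains of untreated fish of the TuAB strain, of both sexes, at 4 months post-fertilization (mpf). The *psap* KO fish are homozygous for a net insertion made with CRISPR-Cas9, propagated from 1 carrier, with a premature stop codon ahead of the 4 main saposin domains, and were sampled at the end stage of disease. By the paper, that stage is marked by impaired locomotion, cachexia or both. The WT fish came from the same matings of heterozygous parents. The paper states that, once genotyped by fin clip, the genotypes were kept in separate tanks at similar densities. Effects of tank or of body condition cannot be told apart here from those of genotype.

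In the integrated stress response, a small group of kinases, each activated by a different stress, phosphorylates the translation initiation factor eIF2. General protein synthesis then falls, while a few mRNAs with upstream reading frames, *Atf4* and *Atf5* among them in mammals, are translated better. The Atf4 protein turns on genes of amino acid synthesis and transport and further factors such as Atf3 and Ddit3, and the pathway ends with a phosphatase that removes the phosphate from eIF2. Much of this control acts on translation and protein phosphorylation, which counts of RNA do not measure.

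Libraries held 17562422 to 25127578 counts in *psap* KO and 15332163 to 23480758 in WT brains. Values are given as CPM, the counts of a gene scaled to a common library size, and as they are not divided by transcript length, levels are compared between genotypes and not between genes. A quasi-likelihood test in edgeR compared the genotypes over 21140 genes, at a Benjamini-Hochberg adjusted p under 0.05. By that rule 40.8% of all genes tested differed, 22.3% being higher and 18.5% lower in *psap* KO brains, and a call on a single gene has to be read against these shares. Transcript of the targeted gene, *psap*, was at 412.5 ± 29.1 CPM in *psap* KO and 378 ± 30.5 CPM in WT brains (SD, n=4 each; adjusted p = 0.206), so its level does not check the genotype labels. The paper reports, from RNA sequencing reads over the targeted site, that transcripts of the homozygous fish carried the mutations. Counts per gene do not show this. Transcripts of all 11 neuronal markers listed were detected in every library. In RNA from whole tissue, a change in the number of cells that express a gene cannot be told apart from a change in its level per cell.

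Of the 10 members, 8 were higher in *psap* KO brains and 0 lower, and 2 (*chac1* and *asns*) did not pass the test, beside 22.3% of all genes tested that were higher. The number lower was 1, *chac1*, with RLE scaling, DESeq2 or limma-voom, or without *psap* KO replicate 1. The largest difference was in *atf3*, at 13.2-fold, and the others that were higher lay between 1.40-fold for *atf4b* and 2.20-fold for *ddit3*. The same 8 genes had *psap* KO libraries that were all above the WT libraries, which held for 21.9% of the genes tested (40.3% had no overlap in either direction). Every member passed the filter on low counts, with 108 to 6822 counts per library. For each gene without overlap an exact two-sided permutation test on log2 CPM gave p = 0.0286, the smallest value that 4 libraries against 4 allow.

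**Figure D1:**
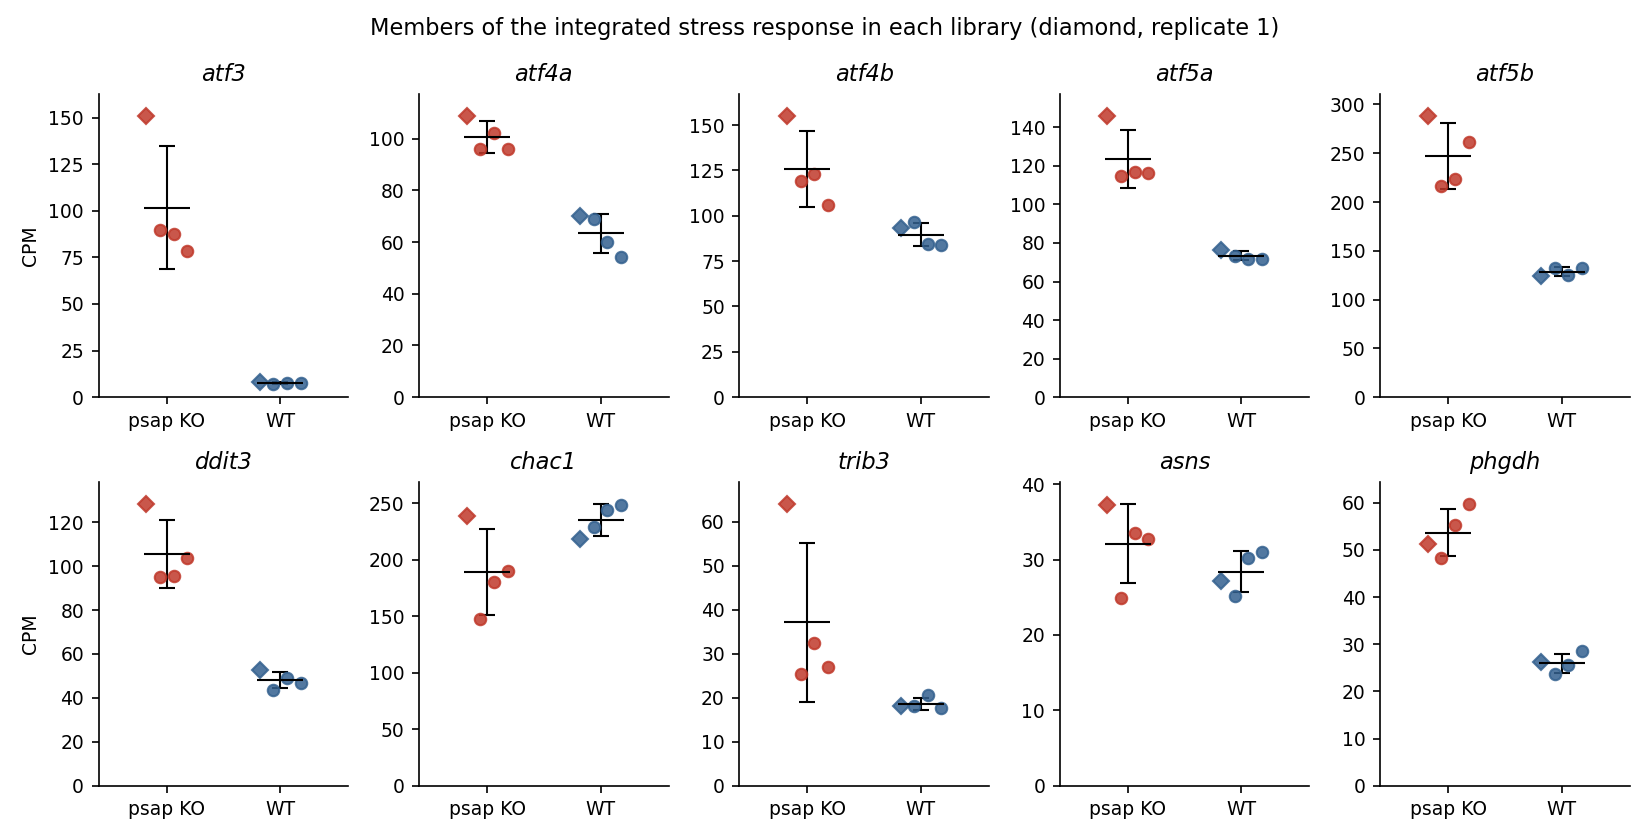
Level of each member in CPM (vertical axis, from 0) in the 4 *psap* KO libraries (red) and the 4 WT libraries (blue), with the mean and SD in black and replicate 1 of each genotype as a diamond. The *psap* KO libraries are all above the WT libraries for 8 genes, *chac1* and *asns* overlap, and replicate 1 of *psap* KO is at the top of its genotype for 9 of the 10 genes.

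*atf3*, a stress-induced transcription factor gene that is also switched on in injured neurons, was low in WT and many times higher in *psap* KO brains. It was measured at 150.8, 89.9, 87.4 and 78.5 CPM in the *psap* KO libraries, against 8.21, 7.29, 7.65 and 7.63 CPM in the WT libraries. The WT libraries lay close together, and the *psap* KO libraries spread widely, with replicate 1 above the other 3. Its log2 fold change was 3.72 (SE 0.217, adjusted p = 1.4e-06 in edgeR), which was number 135 of 21140 when genes were ranked by fold change. Without *psap* KO replicate 1 it was 3.47, so most of the difference did not rest on that library. The gene spans chromosome 20 from 37794633 to 37800737, plus strand, by the annotation that came with the counts and states no build.

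*atf4a* and *atf4b*, the zebrafish copies of the gene for the central factor of the pathway, were both moderately higher. The *psap* KO libraries held 108.7, 95.8, 102.2 and 95.9 CPM of *atf4a*, against 70.2, 68.9, 60.1 and 54.0 CPM in the WT libraries. *atf4a* (chromosome 6) had a log2 fold change of 0.67 (SE 0.0880, adjusted p = 7.5e-05 in edgeR). For *atf4b* the *psap* KO libraries held 155.0, 119.1, 123.2 and 106.0 CPM, against 93.3, 96.8, 84.2 and 84.1 CPM in the WT libraries. The gap between the genotypes was narrower there, with the lowest *psap* KO library 1.096-fold above the highest WT library. *atf4b* (chromosome 3) had a log2 fold change of 0.49 (SE 0.105, adjusted p = 0.0028 in edgeR).

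Whether the copies responded to different degrees was tested on their ratio within each library, which does not depend on scaling. On the log2 scale, the ratio of *atf4a* to *atf4b* counts was -0.31 ± 0.152 in *psap* KO and -0.51 ± 0.0954 in WT brains (SD, n=4 each). The difference of 0.20 (SE 0.0899) did not pass (exact two-sided permutation test, p = 0.114, adjusted over 2 pairs 0.114). Without *psap* KO replicate 1, where *atf4b* was highest, the difference was 0.26 and the adjusted p of the exact permutation test was 0.0286. The copies can share reads where their sequences match, and how such reads were counted is not given in the sources used here.

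*atf5a* and *atf5b*, copies of a related factor gene that in mammals is tied to mitochondrial stress, were higher as well. *atf5a* (chromosome 5) was at 145.9, 114.8, 116.8 and 116.5 CPM in the *psap* KO libraries, against 76.6, 73.2, 71.9 and 71.5 CPM in the WT libraries. Replicate 1 of *psap* KO again stood above 3 libraries that lay within 2.02 CPM of each other. The log2 fold change was 0.75 (SE 0.0820, adjusted p = 1.8e-05 in edgeR). *atf5b* (chromosome 15) was at 288.1, 216.1, 223.3 and 261.3 CPM in the *psap* KO libraries, against 124.2, 132.6, 125.4 and 131.9 CPM in the WT libraries. This was close to a doubling, with a log2 fold change of 0.94 (SE 0.0890, adjusted p = 5.5e-06 in edgeR). In the annotation, *atf5b* shares 3357 bases with BX901923.1, an entry on the same strand that has no row in the counts. How reads in that stretch were counted is not given in the sources used here. The log2 ratio of *atf5a* to *atf5b* counts was -0.999 ± 0.115 in *psap* KO and -0.81 ± 0.0823 in WT brains (SD, n=4 each). That difference of -0.19 (SE 0.0706) had p = 0.0286 in the exact two-sided permutation test and 0.0571 once adjusted over the 2 pairs, and so did not pass.

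*ddit3* encodes Chop, a factor that acts downstream of Atf4 and is known for promoting cell death under prolonged stress. It had 128.1, 95.1, 95.3 and 103.8 CPM in the *psap* KO libraries, against 52.5, 43.8, 49.2 and 46.6 CPM in the WT libraries. Even the lowest *psap* KO library was 1.81-fold above the highest WT library. The log2 fold change was 1.13 (SE 0.1000, adjusted p = 3.1e-06 in edgeR), and the gene lies on chromosome 6.

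*trib3* encodes a pseudokinase that Atf4 and Chop induce in mammals and that dampens their activity. Its level was 63.9, 25.4, 32.4 and 26.8 CPM in the *psap* KO libraries, against 18.0, 18.1, 20.6 and 17.6 CPM in the WT libraries. All *psap* KO libraries were above all WT libraries, but the size of the difference depended on replicate 1 of *psap* KO. The log2 fold change was 0.99 (SE 0.298, adjusted p = 0.0297 in edgeR) with it and 0.60 (adjusted p = 0.000872) without it. With WT replicate 1, 2, 3 or 4 left out, *trib3* did not pass, at adjusted p-values of 0.0519 to 0.0745 and log2 fold changes of 0.96 to 1.04.

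*chac1*, which encodes a glutathione-degrading enzyme and is among the most strongly induced targets of Atf4 in mammalian cells, did not follow the transcription factors. The *psap* KO libraries held 238.7, 147.3, 180.6 and 190.2 CPM, against 218.0, 228.9, 244.4 and 248.3 CPM in the WT libraries. Replicate 1 of *psap* KO was inside the WT range and the other 3 were below it. The log2 fold change was -0.31 (95% interval -0.58 to -0.05, adjusted p = 0.0606 in edgeR; exact two-sided permutation test, p = 0.0857). Without *psap* KO replicate 1 the log2 fold change was -0.44 and *chac1* passed the test as lower (adjusted p = 0.0026). With all 8 libraries it also passed as lower under RLE scaling (-0.33, adjusted p = 0.0482), in DESeq2 (-0.34, adjusted p = 0.0233) and in limma-voom (-0.34, adjusted p = 0.0434), and its adjusted p ran from 0.0026 to 0.137 over 15 alternatives. *chac1*, on chromosome 20 from 28266892 to 28269462, lies in full within *ino80* on the opposite strand. The library kit marks strand, but whether the counting used it is not given in the sources used here, and *ino80* itself was at 53.2 ± 2.89 CPM in *psap* KO and 58.5 ± 2.21 CPM in WT brains (SD, n=4 each; adjusted p = 0.12).

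The amino acid enzymes of the list went separate ways. *phgdh* (chromosome 9), the first enzyme of serine synthesis and in the mouse brain a gene mainly of astrocytes, was at 51.3, 48.3, 55.4 and 59.6 CPM in the *psap* KO libraries, against 26.1, 23.7, 25.5 and 28.6 CPM in the WT libraries. It was higher by 1.69-fold or more between any libraries of the genotypes, and the only one of the 10 whose highest level in *psap* KO brains was not in replicate 1. The log2 fold change was 1.05 (SE 0.0872, adjusted p = 2.0e-06 in edgeR). *asns* (chromosome 19), which makes asparagine and is a classical Atf4 target, was at 37.2, 24.9, 33.5 and 32.8 CPM in the *psap* KO libraries, against 27.2, 25.1, 30.3 and 31.0 CPM in the WT libraries. The genotypes overlapped, and the log2 fold change of 0.17 had a 95% interval of -0.08 to 0.43 (adjusted p = 0.265 in edgeR; exact two-sided permutation test, p = 0.314). That interval stays below the point estimates for every member that was higher. It overlaps the 95% intervals of *atf4b* (0.26 to 0.72) and *trib3* (0.30 to 1.68), and differences between members were not tested here. Without *psap* KO replicate 2, the lowest of the 8 libraries for *asns*, the value was 0.28 and passed (adjusted p = 0.0413).

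**Figure D2:**
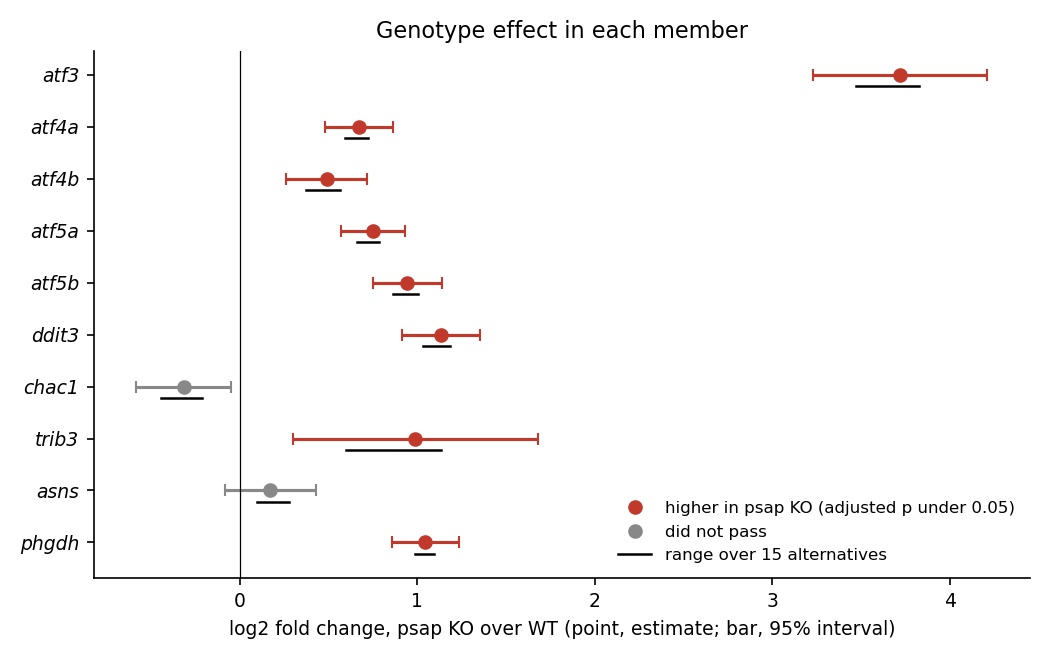
Log2 fold change (*psap* KO over WT) for each member, with a 95% interval computed from the edgeR F statistic (horizontal bar) and, below it in black, the range over 15 alternatives. *atf3* stands at 3.72, far right of the others, *chac1* at -0.31 and *asns* at 0.17 in grey did not pass, and the remaining 7 lie between 0.49 and 1.13.

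Replicate 1 of *psap* KO had the highest level of all 8 libraries for 8 of the 10 members and the highest of its genotype for 9. Over all genes tested, that library was the highest of the *psap* KO libraries for 26.4% of genes, and for 28.5% of the genes called higher. It was also the *psap* KO library with the fewest counts, 17562422. On the log2 scale relative to the WT mean it stood at 4.29 for *atf3*, against 3.35 to 3.55 for the other *psap* KO libraries, and at 1.78 for *trib3*, against 0.45 to 0.80. For *phgdh* it was in the middle of its genotype, at 0.98 within a range of 0.895 to 1.199. Without that library 8 members were still higher, and 1 (*chac1*) was lower. The part of this library in the size of the values, other than by leaving it out, was not tested.

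**Figure D3:**
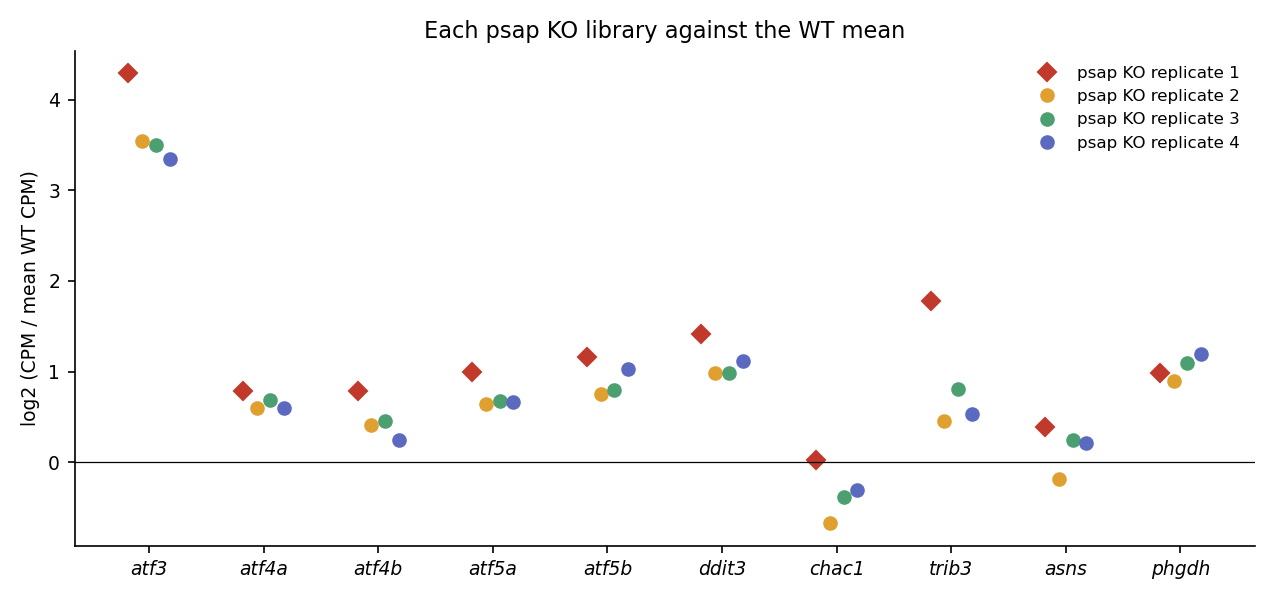
Log2 ratio of each *psap* KO library to the mean WT level (vertical axis) for the 10 members, with replicate 1 as red diamonds and the other replicates as circles. Replicate 1 is the highest point for 9 genes, most clearly for *trib3* and *atf3*, and lies among the others for *phgdh*.

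Upstream of these factors, the genes for eIF2 kinases that were measured were higher, and the interferon-related kinases most of all. The list held 10 symbols, of which 8 had a row, and the kinase Gcn2 was not among these 8. Of these 8 genes, for kinases and for proteins that act on them, 5 were higher (62.5%, beside 22.3% of all genes tested) and 0 lower. The 3 that did not pass were not kinase genes. The median log2 fold change was 0.43 beside 0.02 over all genes tested. *pkz*, a fish kinase gene with Z-DNA-binding domains related to the double-stranded RNA kinase, was at 23.2, 20.81, 20.03 and 15.01 CPM in the *psap* KO libraries, against 3.67, 0.675, 0.572 and 1.35 CPM in the WT libraries. Its log2 fold change was 3.66 (SE 0.475, adjusted p = 0.000476 in edgeR), or 4.48 (adjusted p = 1.2e-06) without WT replicate 1, the highest WT library. *eif2ak2*, the gene for that RNA-sensing kinase (Pkr), had 1.28 (SE 0.157, adjusted p = 5.7e-05). *eif2ak3* (Perk), the kinase of endoplasmic reticulum (ER) stress, *eif2ak1* (Hri), the heme-sensing kinase, and *dele1*, whose product activates Hri on mitochondrial stress, had smaller log2 fold changes of 0.48, 0.43 and 0.44.

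Among 16 genes for eIF2, its exchange factor eIF2B and its phosphatase, 4 were higher (25.0%, close to the 22.3% of all genes tested) and 1 was lower. The targeting subunits of the phosphatase, which reverse the response, moved most: *ppp1r15b* was at 19.7 ± 7.01 CPM in *psap* KO and 7.18 ± 0.785 CPM in WT brains (SD, n=4 each; log2 fold change 1.45, adjusted p = 0.000404), and *ppp1r15a* (Gadd34) at 56.1 ± 8.55 and 35.6 ± 1.88 CPM (0.65, adjusted p = 0.000256). The median log2 fold change of the 16 genes was 0.11, and 11 of them did not pass.

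Transcription factors that pair with or resemble the Atf proteins, all of the basic leucine zipper (bZIP) family, were followed as a group. Of 15 measured, 8 were higher (53.3%, beside 22.3% of all genes tested) and 1 lower (6.67%, beside 18.5%). The other 6 did not pass, and the median log2 fold change was 0.35. *jun*, a partner of Atf3, was at 125.4 ± 19.8 CPM in *psap* KO and 42.4 ± 0.587 CPM in WT brains (SD, n=4 each), and *nfe2l2a* (Nrf2), the antioxidant regulator, at 116.1 ± 6.45 and 44.9 ± 1.03 CPM. The C/EBP genes *cebpa*, *cebpb*, *cebpd* and *cebpg* had log2 fold changes of 1.095, 1.79, 1.86 and 0.35. *cebpd* spread widely, at 66.2, 24.0, 46.3 and 14.7 CPM in the *psap* KO libraries, against 9.56 to 11.7 CPM in the WT libraries, and lost its call without WT replicate 1, 3 or 4 (adjusted p = 0.0505 to 0.0547). *batf3* had 2.53 (3.56 without WT replicate 4), at 0.748 to 1.15 CPM in *psap* KO libraries and near the floor, at 0.044 to 0.372 CPM, in WT libraries. Only the *psap* KO libraries carried *batf3* past the filter on low counts. Its call, 1 of the 8, is thus not independent of the filter, and its size is poorly fixed. *atf7a* had 0.75, and *jdp2a*, a repressor of the same family, fell by 0.56 on the log2 scale (adjusted p = 0.0103).

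Genes of amino acid supply, listed by family and not by whether Atf4 is known to target them, moved unevenly. Of 11 genes of serine and one-carbon metabolism other than *phgdh*, 6 were higher (54.5%, beside 22.3% of all genes tested) and 0 lower. The other 5 did not pass (median log2 fold change of the list 0.29). *mthfd1l*, a mitochondrial one-carbon enzyme, was at 13.1 ± 4.83 CPM in *psap* KO and 2.24 ± 0.456 CPM in WT brains (SD, n=4 each; log2 fold change 2.55, adjusted p = 1.8e-05), and *mthfd1b*, its cytosolic relative, had 0.67. The enzymes that follow Phgdh in serine synthesis, named after their values were seen, had smaller values, with 0.35 for *psat1* (adjusted p = 0.0163, or 0.0522 without WT replicate 2) and 0.29 for *psph* (adjusted p = 0.155), and *mthfd2* had -0.08 (adjusted p = 0.465). Genes named after their values were seen do not stand for their lists, in which genes left unnamed were higher too. Of 15 other genes of amino acid synthesis, 5 were higher (33.3%) and 3 were lower (close to the share of all genes tested, 18.5%). *pycr1a*, of proline synthesis, had 0.57 and *gpt2*, an alanine transaminase, had 0.37. The related *gpt2l* went the other way, at 103 CPM in *psap* KO and 169 CPM in WT brains (-0.72, adjusted p = 0.0043 in edgeR). *gpt2l* was named after its value was seen and was not run under the alternatives. Of 11 amino acid transporter genes, 4 were higher (36.4%) and 1 was lower (9.09%), beside 22.3% and 18.5% of all genes tested. Without WT replicate 1, 2 were lower. *slc3a2a*, a copy of the gene for the heavy chain of several transporters, rose to 84.3 ± 9.95 CPM in *psap* KO brains, against 51.1 ± 5.08 CPM in WT brains (SD, n=4 each; log2 fold change 0.72, adjusted p = 9.6e-05). The other copy, *slc3a2b*, did not pass, at 194 CPM in *psap* KO and 147 CPM in WT brains (0.40, adjusted p = 0.117 in edgeR). It too was named after its value was seen and has no values under the alternatives. *slc38a2*, a glutamine transporter gene that amino acid shortage induces, fell to 314.7 ± 14.2 CPM in *psap* KO brains, against 430.1 ± 18.6 CPM in WT brains (-0.45, adjusted p = 0.000102).

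Genes for cytosolic tRNA synthetases, only some of which Atf4 induces in mammals, had small differences. They too were listed by family and not by whether Atf4 is known to target them. Of 16 measured, 12 were higher (75%, beside 22.3% of all genes tested) and 0 lower, and 4 did not pass. All 16 estimates were positive, and the values ran from 0.13 to 0.56 with a median log2 fold change of 0.34. *eprs* and *kars* had 0.54 and 0.48 (adjusted p = 8.1e-05 and 0.000255). A list of 18 further stress-output genes had 6 higher and 6 lower (33.3% each, beside 22.3% and 18.5% of all genes tested). The lower genes included *trib1*, *trib2* and *chac2*, which are relatives of members, so the list is not only of outputs. Genes other than these relatives were lower too, *stc2a* and *stc2b* among them. Its median log2 fold change was -0.04, and without WT replicate 1 the number lower was 3. *nupr1b*, a small stress protein gene, had a log2 fold change of 1.63 (adjusted p = 3.1e-05), and *trib2*, a relative of *trib3*, fell by 0.73 (adjusted p = 9.7e-06).

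The neighbouring arms of the unfolded protein response were higher by less than 2-fold for every gene that passed. Of 28 genes for ER chaperones and the Ire1 and Atf6 arms, 14 were higher (50%, beside 22.3% of all genes tested) and 0 lower. The other 14 did not pass, and the list had a median of 0.29 and a largest log2 fold change of 0.84. *canx*, a lectin chaperone, was at 342.6 ± 25.9 CPM in *psap* KO and 227.1 ± 12.9 CPM in WT brains (SD, n=4 each; 0.59, adjusted p = 3.7e-05), and *xbp1*, the factor spliced by Ire1, had 0.54 (adjusted p = 7.3e-05). Splicing of *xbp1* cannot be read from counts per gene. Of 12 mitochondrial chaperone and protease genes, 5 were higher (41.7%) and 1 was lower (8.33%), beside 22.3% and 18.5% of all genes tested. Without *psap* KO replicate 2 or 3 or WT replicate 3, 0 were lower. *hspe1* and *hspd1*, the subunits of the mitochondrial chaperonin, had log2 fold changes of 0.45 and 0.34.

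**Figure D4:**
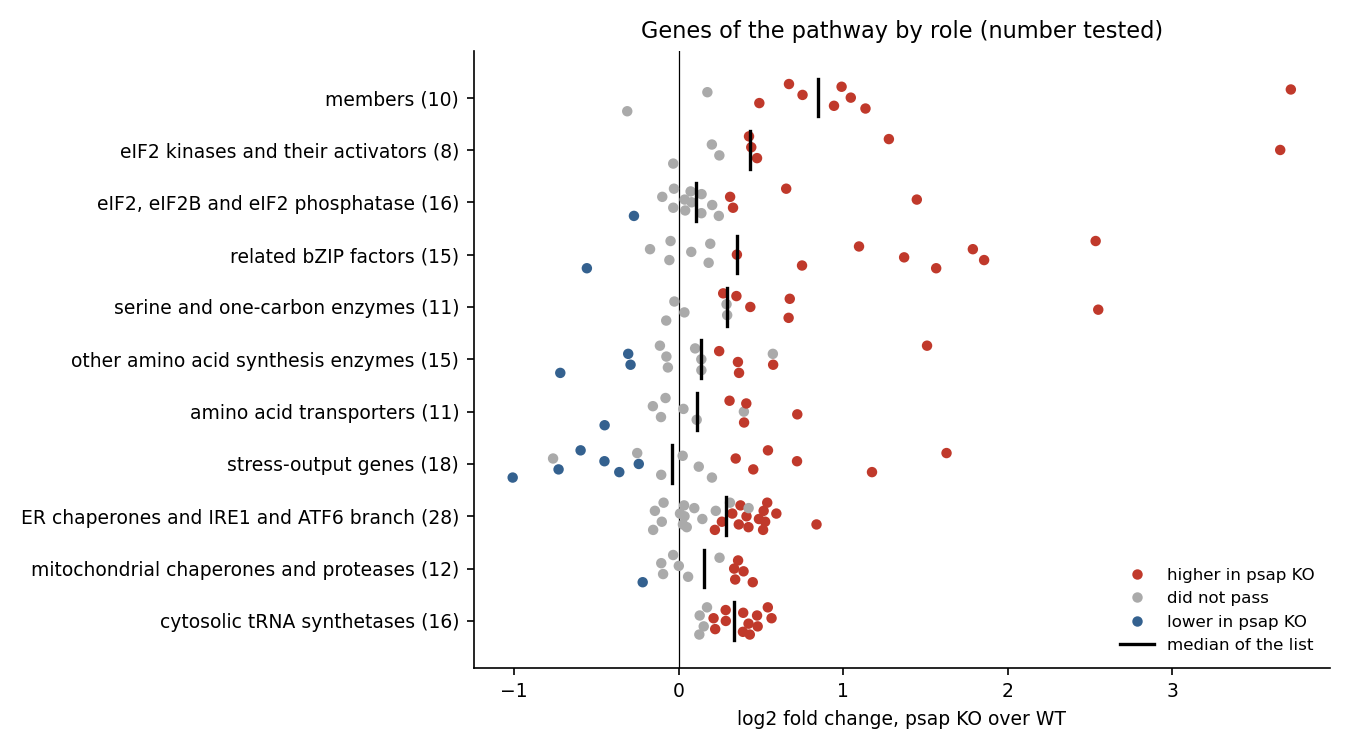
Log2 fold change (*psap* KO over WT, horizontal axis) for every tested gene of each role, with the number tested in parentheses, genes called higher in red, called lower in blue and not called in grey, and the median of each list as a black bar. *atf3* and *pkz* lie farthest to the right, and the tRNA synthetases form a narrow band between 0.13 and 0.56.

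Cell type markers moved in the same libraries. Over all genes tested, 22.3% were higher and 18.5% lower, and each count below has to be read beside these shares. The shares lower among oligodendrocyte and skeletal muscle genes, 10% each, were under that of all genes tested. All 15 measured genes of microglia and macrophages were higher in *psap* KO brains, with a median log2 fold change of 2.14, and summed to 1063 to 1467 CPM in the *psap* KO libraries, against 229 to 260 CPM in the WT libraries. None of them was at 0 in a genotype. The gene lowest in WT libraries was at 0.582 ± 0.279 CPM there and 3.71 ± 0.387 CPM in *psap* KO libraries (SD, n=4 each). Only the *psap* KO libraries carried it past the filter on low counts, so its call, 1 of the 15, is not independent of the filter. The microglia and macrophage genes summed to 1134, 1063, 1148 and 1467 CPM in *psap* KO replicates 1 to 4. Among all genes called higher, replicate 4 was the highest *psap* KO library for 43.8% and replicate 1 for 28.5%. Of 9 tested radial astroglia markers, 6 were higher, and the sum of the 10 measured was 4649 to 5519 CPM in *psap* KO and 3358 to 3919 CPM in WT libraries. Single astroglia markers differed widely, and *gfap*, named after its value was seen, had a log2 fold change of 2.03. Of 11 neuronal markers, 9 were lower and 1 was higher, with sums of 3899 to 4090 CPM in *psap* KO and 5298 to 5608 CPM in WT libraries. Of 10 oligodendrocyte markers, 5 were higher and 1 was lower, which was *mbpa*, a myelin protein gene named after its value was seen (log2 fold change -2.29). Their sum was 2562 to 4681 CPM in *psap* KO libraries, lowest in replicate 1, and 7324 to 9163 CPM in WT libraries. Most of the WT sum was *mbpa*, at 6323 ± 699 CPM in WT and 1293 ± 272 CPM in *psap* KO brains (SD, n=4 each). The fall of the sum is therefore mainly that of *mbpa* and not of the markers as a group. Of 8 erythrocyte genes, 7 were lower (median log2 fold change -1.20), with sums of 176 to 256 CPM in *psap* KO and 337 to 570 CPM in WT libraries. Of 7 endothelial markers, 4 were higher and 0 lower, with sums of 339 to 410 CPM in *psap* KO and 240 to 293 CPM in WT libraries. Skeletal muscle genes, of which 1 of 10 tested was lower, summed to 23.0 to 46.0 CPM in *psap* KO libraries, against 71.9 to 89.4 CPM in 3 WT libraries and 749 CPM in WT replicate 1. The part of these shifts in the values of the members was not tested.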

How the data were processed

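Total RNA from pools of 3 brains was depleted of ribosomal RNA and sequenced with strand kept. After removal of optical duplicates, the authors used cutadapt 1.16 for adapters, STAR 2.6.1b for alignment to the zebrafish genome with Ensembl features, and featureCounts 1.6.3 for read counts of genes. The deposited raw counts for 22871 genes were used here. The deposited workbook also holds the authors' DESeq2 1.22.2 comparison (log2 fold changes, p-values, mean normalized signal and Wald score), from which only gene names were taken, and an annotation with positions and no build.

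Tests were made with edgeR 4.0.16 (R 4.3.3), using TMM scaling (factors 1.009 to 1.041 for *psap* KO and 0.967 to 0.988 for WT libraries), filterByExpr, which left out 1731 genes, and a robust quasi-likelihood fit on genotype, with p-values adjusted over 21140 genes. Log2 CPM for permutation tests used a prior count of 2, and paralog ratios an offset of 0.5 counts. Scripts were tested on simulated data. The alternatives were RLE and upper-quartile scaling, no filter, limma-voom (limma 3.58.1), DESeq2 1.42.0, a minimum mean count of 50, a replicate block and each library left out. Within each genotype, no library was a copy of another by its counts (chi-square per degree of freedom 5.31 to 30.7 over 12 pairs). Pairs of libraries from different genotypes were not checked in this way. Members and lists were chosen with earlier results of these data known. Besides members, the text names the 2 genes of each list with the smallest p among those called, every called kinase-list and bZIP gene, and others where stated. Each library pools fish, so the spread is between pools.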

Additional observations from a re-analysis of the deposited data

Results flagged for a closer look

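Groups of 4 libraries were formed from each named gene in 1 genotype, without *gpt2l* and *slc3a2b*. In 11 of 114 such groups, the highest or lowest library lay so far from the others that the gap passed Dixon's 95% limit. Chance flags about 1 group in 20. *psap* KO replicate 1 was the library in 3 of them, with *atf3* at 150.8 CPM against 78.5 to 89.9 CPM in the other *psap* KO libraries, *atf5a* at 145.9 CPM against 114.8 to 116.8 CPM, and *atf7a* at 6.51 CPM, below the 8.05 to 8.31 CPM of the others. Among WT libraries, *trib3* was at 20.6 CPM in replicate 3 against 17.6 to 18.1 CPM, *cebpa* at 16.7 CPM in replicate 4 against 19.2 to 19.7 CPM, *slc3a2a* at 43.5 CPM in replicate 2 against 52.8 to 54.1 CPM, and *kars* at 68.8 CPM in replicate 1 against 75.8 to 76.8 CPM. Of the genes named after their values were seen, *eif2b1* was at 21.0 CPM in *psap* KO replicate 4 against 16.5 to 17.2 CPM in the other *psap* KO libraries. In WT libraries, *gfap* was at 85.1 CPM in replicate 2 against 108.6 to 112.3 CPM, *sesn1* at 158.5 CPM in replicate 1 against 175.6 to 177.5 CPM, and *sesn3* at 43.8 CPM in replicate 3 against 52.4 to 53.0 CPM.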

How the results depend on the processing

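All 15 alternatives kept *atf3*, *atf4a*, *atf4b*, *atf5a*, *atf5b*, *ddit3* and *phgdh* higher. Of all named genes, *slc7a11*, which did not pass in any, changed direction when libraries were left out, at -0.276 to 0.0345 (adjusted p = 0.899 at its 1 positive value, without *psap* KO replicate 4). The number of members called higher was 7 to 9. *chac1* passed as lower with RLE scaling (-0.33, adjusted p = 0.0482), DESeq2 (-0.34, adjusted p = 0.0233) and limma-voom (-0.34, adjusted p = 0.0434), which makes 1 member lower under each. DESeq2 also called 2 amino acid transporters lower. When each library was left out in turn, log2 fold changes ran from -0.44 to -0.21 for *chac1*, 0.60 to 1.14 for *trib3* and 0.10 to 0.28 for *asns*. Numbers called lower ran from 0 to 1 for members and for mitochondrial chaperones and proteases, 1 to 2 for amino acid transporters and 3 to 5 for stress-output genes. The differences in the log2 ratios of paralogs ran from 0.14 to 0.26 for *atf4a* over *atf4b* and from -0.22 to -0.13 for *atf5a* over *atf5b*, and without *psap* KO replicate 1 both had an adjusted exact permutation p of 0.0286, the smallest that 3 libraries against 4 allow. The causes of these changes were not tested. Leaving out a library also leaves fewer libraries in the fit, and the effect of that alone was not tested either.

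The sources name no pairing of replicates that carry 1 number in both genotypes, but the paper states that WT and KO samples were processed by turns. Whether such replicates share more than a number is therefore not known. Their deviations correlated at 0.0575 to 0.167, and 2 of the 4 *psap* KO libraries (replicates 3 and 4) correlated best with the WT library of their own number. With a replicate block, 4908 genes were higher and 4429 lower over all genes tested, against 4720 and 3903 without it, 8 members were higher in both, *cebpd* had a log2 fold change of 1.67 (adjusted p = 0.0629), *sesn3* passed (0.20, adjusted p = 0.0321), and no other named gene lost or gained a call. For genes named after their values were seen, the alternatives were added after seeing the data, except for *gpt2l* and *slc3a2b*, which were not run. There *chac2* did not pass with upper-quartile scaling (-0.33, adjusted p = 0.0614) and *eif2b1* did not in DESeq2 (0.29, adjusted p = 0.0531). Sign flips within pairs cannot pass with 4 pairs, and gave an adjusted p of 0.25 for the differences of 0.20 and -0.19 between paralogs. With 4 pools of brains a genotype, small differences such as that of *asns* are poorly resolved.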

Other observations

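Relatives of the members did not always share their direction (genes named after their values were seen). In *psap* KO over WT brains, *trib3* was higher while *trib1* and *trib2*, the other tribbles pseudokinase genes, had log2 fold changes of -0.60 and -0.73 (adjusted p = 0.0024 and 9.7e-06 from edgeR's quasi-likelihood test). *chac2*, the constitutive relative of *chac1*, had -0.36 (adjusted p = 0.0407), beside -0.31 for *chac1*, and lost its call when any library other than *psap* KO replicate 2 was left out (adjusted p = 0.0520 to 0.0986). The sestrin genes, stress-induced regulators of mTORC1, had 0.45 for *sesn1* (adjusted p = 0.0030), 1.17 for *sesn2* (adjusted p = 0.00069) and 0.20 for *sesn3* (adjusted p = 0.0875). Both *nupr1* copies were higher, at 0.72 for *nupr1a* and 1.63 for *nupr1b*, and both stanniocalcin genes *stc2a* and *stc2b* were lower, at -0.45 and -1.01 (adjusted p = 0.0016 and 0.0183), *stc2b* losing its call without WT replicate 1 or 4 (adjusted p = 0.0577 and 0.0581). *slc7a11*, the cystine transporter gene and a shared target of Atf4 and Nrf2 in mammals, had -0.08 (adjusted p = 0.762), while *nfe2l2a* itself had 1.37. Of the 11 listed amino acid transporter genes, *slc7a11* among them, 4 were higher and 1 was lower. *eif2b1* was the 1 higher gene (0.31, adjusted p = 0.0357) among the 5 subunits of eIF2B, and lost its call without *psap* KO replicate 3 or 4 or WT replicate 1, 2 or 4 (adjusted p = 0.0535 to 0.108).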
